A study of Mus musculus with 2 samples.

Results

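Immune checkpoint genes encode the surface proteins through which T cells are held back or helped by the cells they meet. PD-1, CTLA-4, LAG-3, TIM-3 and TIGIT sit mainly on activated T cells and weaken their response, whereas PD-L1, CD80 and CD86 sit mainly on dendritic cells and macrophages, where PD-L1 engages PD-1 and the CD80 and CD86 pair engages either the stimulating receptor CD28 or, more tightly, CTLA-4. VISTA, found on both myeloid cells and T cells, can act as ligand or receptor. In tumors, antibodies against several of these proteins are used to restore T cell killing. The genes described here are the receptors *Pdcd1* (PD-1), *Ctla4*, *Lag3*, *Havcr2* (TIM-3) and *Tigit*, the ligands *Cd274* (PD-L1), *Cd80* and *Cd86*, and *Vsir* (VISTA). They were chosen by symbol and make up 9 of the 27031 genes counted.

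Live CD45+ leukocytes were sorted from subcutaneous MC38 tumors, a colorectal carcinoma line of C57BL/6 origin, to ask how the angiotensin receptor blocker telmisartan alters the immune cells of a tumor. Hosts of both groups were female C57BL/6 mice of 6 to 8 weeks, given telmisartan at 5 mg/kg or vehicle by daily gavage and killed on day 13. Cells of 5 mice were pooled within each group, and the control pool was marked with Sample Tag 1 and the telmisartan pool with Sample Tag 2. Both pools went through 1 BD Rhapsody cartridge, which gave 1 transcript library and 1 Sample Tag library that list the same 20726 cell barcodes. Transcripts were counted as UMIs, molecular tags that each stand for 1 captured RNA molecule, 107214449 in all.

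Limits on tag, gene number, mitochondrial share and doublets left 4542 cells of the control pool (41768680 UMIs) and 4427 of the telmisartan pool (30939085 UMIs). Median depth was 8720.5 UMIs per control cell and 6365 per telmisartan cell, so levels are given as UMIs per 1000000 UMIs of the same cells (CPM). Over the mitochondrial limit were 3586 of the 8738 tag-called control cells and 5373 of the 10222 telmisartan cells, a larger share in telmisartan, whose part in the ratios between pools was not tested beyond the alternatives given. The cells fell into macrophage-like (4054 control and 3997 telmisartan), dendritic-like (366 and 294), T-like (74 and 112) and neutrophil-like (48 and 24) classes. A class with many cells gives a precise level only for genes with many UMIs, and T-like cells held 920561 UMIs in both pools together. *Tigit* had 17 UMIs in macrophage-like and 7 in dendritic-like cells, while *Ctla4* had 851 in T-like cells. With 1 pool per group there is no replicate and no test between groups, and every 95% interval covers counting error alone. The largest macrophage-like cluster was led by *Ung* and *Chil3* in the control pool (1029 cells) and by *Areg* and *Il1a* in the telmisartan pool (1113 cells), which stands beside every macrophage value below.

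*Pdcd1*, *Lag3* and *Tigit* were genes of T-like cells. *Pdcd1* was at 149 CPM in control T-like cells (70 UMIs, interval 116 to 189) and 321 CPM in telmisartan T-like cells (145 UMIs, 271 to 378). Its level in dendritic-like cells was 9.18 CPM in control (27 UMIs) and 3.85 CPM in telmisartan (8 UMIs), and in macrophage-like cells 0.340 and 0.670 CPM (13 and 19 UMIs). *Lag3*, whose product binds MHC class II, stood at 34.1 and 57.6 CPM in T-like cells of the control and telmisartan pools (16 and 26 UMIs). *Tigit*, which encodes a receptor for PVR, stood at 156 and 182 CPM there (73 and 82 UMIs). For each of these 3 genes the level over both pools fell from T-like to dendritic-like to macrophage-like cells with no overlap of intervals. For *Lag3*, 5 of the 13 UMIs of dendritic-like cells lay in 1 telmisartan cell, which the counting interval does not reflect. No UMI of the 3 genes was found in neutrophil-like cells, where 3 counts among 143866 UMIs would be 20.9 CPM, above the level of each in dendritic-like cells. As 3 of 72 cells this allows up to 4.17% of cells with a UMI at a median depth of 1769, which does not limit the share of cells that express the gene.

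A *Pdcd1* UMI was seen in 40.9% of T-like cells (interval 33.7 to 48.3%) at a median depth of 3338 UMIs, and in 0.360% of macrophage-like cells at a median depth of 7574. For *Tigit* the shares in these classes were 32.8% and 0.186%, and for *Lag3* 15.1% and 0.385%. The deeper class had the lower share in each case. The receptors were also set against the T cell transcripts *Trac*, *Trbc1*, *Trbc2*, *Cd3d*, *Cd3e* and *Cd3g*. Per 100 UMIs of these 6 genes, *Pdcd1* had 6.11 UMIs in T-like and 5.62 in macrophage-like cells, and *Tigit* 4.41 and 2.99. Of the 32 *Pdcd1* UMIs of macrophage-like cells, 19 lay in the 7664 cells without a UMI of the 6 genes (0.302 CPM) and 13 in the 387 cells with one (3.41 CPM). *Lag3* had 1.19 UMIs per 100 in T-like and 6.33 in macrophage-like cells, on 36 UMIs in the latter. In dendritic-like cells, which held 50 UMIs of the 6 genes, *Pdcd1* had 70 per 100. The source of these UMIs was not tested.

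*Ctla4*, whose product captures CD80 and CD86, was at 793 CPM in control and 1061 CPM in telmisartan T-like cells (372 and 479 UMIs). It was also found in dendritic-like cells (22.4 and 31.3 CPM in the control and telmisartan pools) and in macrophage-like cells (22.9 and 24.3 CPM). The intervals over both pools, 21.8 to 31.0 CPM in dendritic-like and 22.3 to 24.7 CPM in macrophage-like cells, overlapped, and both lay inside that of neutrophil-like cells, which had 2 *Ctla4* UMIs (1.68 to 50.2 CPM). A *Ctla4* UMI was seen in 78.5% of T-like cells, 17.0% of dendritic-like cells (median depth 7022.5), 16.5% of macrophage-like cells (7574) and 2.78% of neutrophil-like cells (1769). After thinning to 1000 UMIs per cell, which left out 45 control and 73 telmisartan macrophage-like cells, the macrophage share was 2.29% in control and 2.24% in telmisartan.

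Per 100 UMIs of the 6 T cell genes, *Ctla4* had 24.2 UMIs in T-like and 275 in macrophage-like cells, where the ratio of *Pdcd1* was near that of T-like cells. In dendritic-like cells *Ctla4* had 262, and there *Pdcd1* too stood above its T-like ratio. In the 7664 macrophage-like cells without a UMI of any of the 6 genes it was at 22.4 CPM (21.3 to 23.7), and in the 387 with such a UMI at 40.6 CPM (34.5 to 47.5). The processed pseudogene *Rpl18-ps1* lies on the same strand within the annotated span of *Ctla4* and has no column of its own. Its parent gene *Rpl18* was at 647 CPM in macrophage-like cells and 827 CPM in T-like cells. Whether reads from it were counted as *Ctla4* was not tested.

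*Havcr2* and *Vsir* were spread over lymphoid and myeloid cells. *Havcr2*, the gene of the TIM-3 receptor of T cells and phagocytes, was at 224 and 303 CPM in control and telmisartan T-like cells, 164 and 165 CPM in dendritic-like cells and 157 and 141 CPM in macrophage-like cells. Neutrophil-like cells had 8 *Havcr2* UMIs (55.6 CPM, interval 24.0 to 110). The order over both pools was T-like, dendritic-like, macrophage-like and neutrophil-like, and the dendritic-like interval (153 to 176 CPM) began where the macrophage-like interval (147 to 153 CPM) ended. *Vsir* was at 161 and 163 CPM in macrophage-like cells of the control and telmisartan pools, 139 and 144 CPM in T-like cells, and 57.1 and 83.4 CPM in dendritic-like cells. In neutrophil-like cells it was at 248 and 254 CPM (24 and 12 UMIs). Over both pools *Vsir* was lowest in dendritic-like cells (61.0 to 75.6 CPM) and highest in neutrophil-like cells (175 to 346 CPM), while T-like (118 to 168 CPM) and macrophage-like cells (159 to 165 CPM) overlapped.

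Of the ligands, *Cd274* was at 1325 and 1925 CPM in control and telmisartan neutrophil-like cells (128 and 91 UMIs), 376 and 352 CPM in dendritic-like cells, 275 and 231 CPM in macrophage-like cells and 104 and 153 CPM in T-like cells. *Cd80* was at 776 and 339 CPM in neutrophil-like cells (75 and 16 UMIs), 335 and 340 CPM in dendritic-like cells, 211 and 216 CPM in macrophage-like cells and 66.1 and 70.9 CPM in T-like cells. *Cd274* ran in this order in each pool, with no overlap of the intervals over both pools. *Cd80* did so over both pools and in control, but in telmisartan its level in neutrophil-like cells (193 to 550 CPM) was not above that in dendritic-like cells (315 to 366 CPM). *Cd86* followed another order, with 463 and 522 CPM in dendritic-like cells, 309 and 431 CPM in macrophage-like cells and 136 and 184 CPM in T-like cells. Neutrophil-like cells held 20 *Cd86* UMIs (139 CPM, interval 84.9 to 215), which overlapped T-like cells (160 CPM, 135 to 188).

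**Figure D1:**
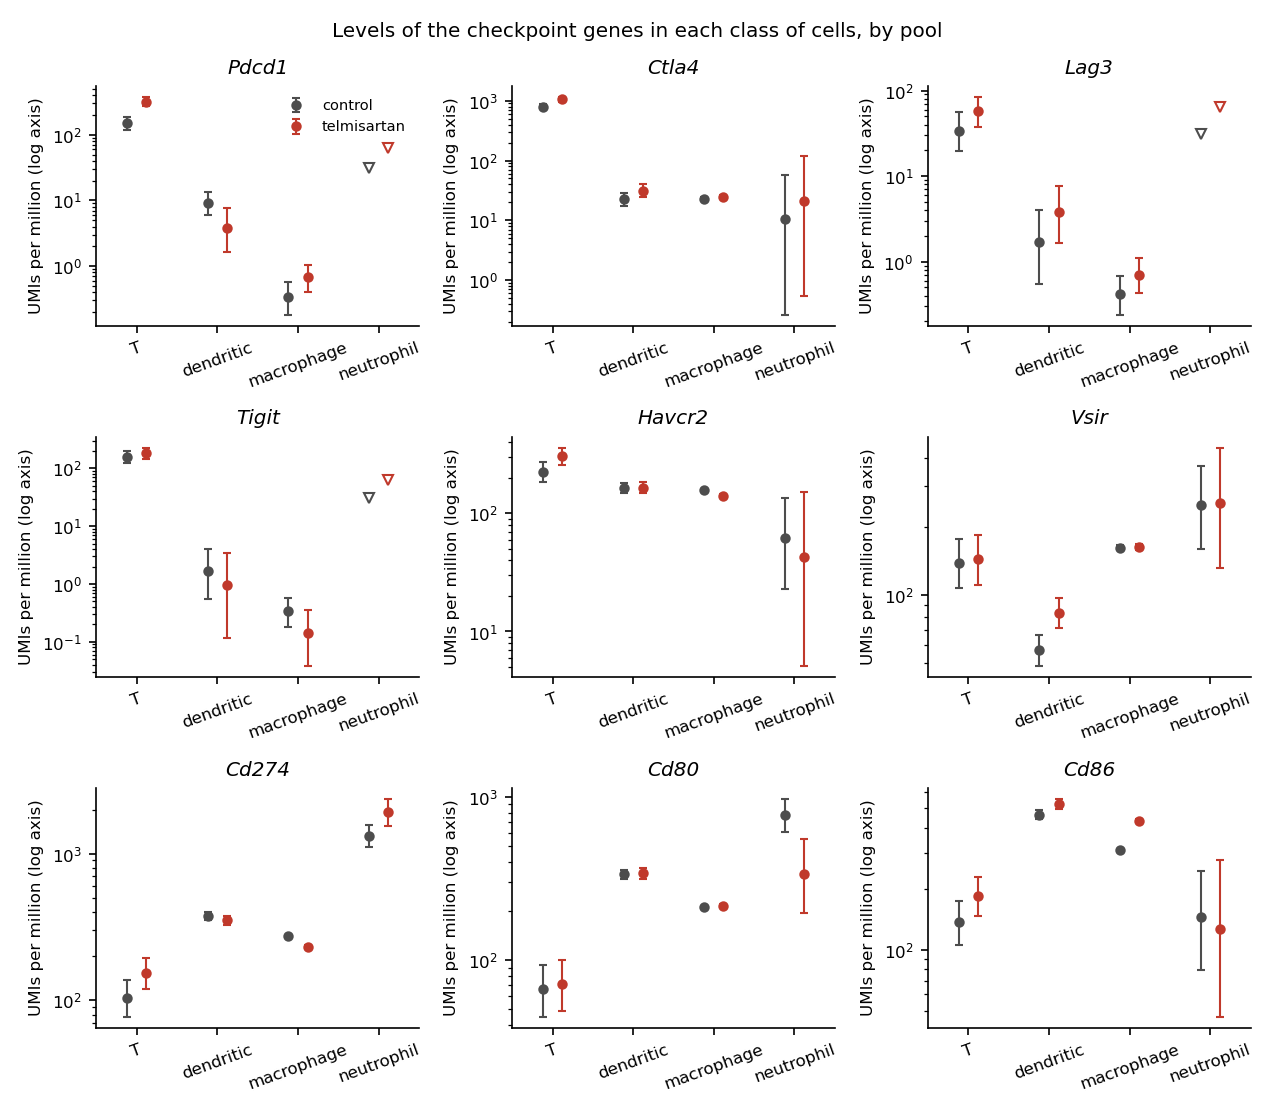
Level of each checkpoint gene (CPM, log axis) in T-like, dendritic-like, macrophage-like and neutrophil-like cells of the control (gray) and telmisartan (red) pools, with exact Poisson 95% intervals; open triangles stand at 3 counts where no UMI was found. *Pdcd1* runs from 321 CPM in telmisartan T-like cells to 0.340 CPM in control macrophage-like cells, whereas *Havcr2* stays between 42.3 and 303 CPM.

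Macrophage markers were also counted in T-like cells. All 12 macrophage and monocyte markers used here were detected in T-like cells, at a summed 6500.1 CPM in control and 4069.5 CPM in telmisartan, and *Lyz2* was the most abundant of them (2900.3 and 1649.5 CPM). The sum is not a measure of macrophage RNA alone, since *Ly6c2*, which is in it, was at 752 CPM in T-like and 126 CPM in macrophage-like cells. T-like cells with no UMI of *C1qa*, *C1qb*, *C1qc*, *Adgre1* and *Mrc1* numbered 37 in control and 61 in telmisartan. In these cells *Cd86* was at 63.3 and 137 CPM (8 and 25 UMIs), *Cd80* at 94.9 and 87.5 CPM and *Cd274* at 103 and 164 CPM. The ligand genes were thus still counted in cells with no UMI of these 5 genes, at a median depth of 2529.5 UMIs. Over all T-like cells *Cd86* was at 136 CPM in control and 184 CPM in telmisartan. *Lyz2* is not among the 5 genes, and the source of the ligand UMIs was not tested.

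T-like cells were divided into 4 subclusters. The subcluster led by *Gzma*, *Ifng* and *Xcl1* had 74 cells (26 control and 48 telmisartan), that with *Cd8b1* and *Il7r* among its leading genes 64 (21 and 43), that with *Foxp3* and *Ikzf2* 27 (14 and 13), and that led by macrophage genes such as *C1qa* and *Mrc1* 21 (13 and 8). Their median depths, in this order, were 4599, 1657, 4014 and 11312 UMIs. The subcluster led by macrophage genes held 17.6% of control and 7.14% of telmisartan T-like cells. Its part in the T-like ratios was not tested beyond the alternative without it. *Ctla4* and *Tigit* were highest in the *Foxp3* subcluster, at 1992 CPM (1758 to 2248) and 487 CPM (375 to 621). No other subcluster exceeded 906 CPM of *Ctla4* or 133 CPM of *Tigit*, and none of their intervals reached that of the *Foxp3* subcluster. Within telmisartan alone *Tigit* in the *Foxp3* subcluster (265 to 576 CPM) overlapped the subcluster led by macrophage genes (121 to 358 CPM). *Pdcd1* took the other side, with 352 CPM (299 to 412) in the *Gzma* subcluster and 144 CPM (87.0 to 226) in the *Foxp3* subcluster. *Pdcd1* in the *Cd8b1* subcluster, at 249 CPM (165 to 360), overlapped both. Within control alone the *Gzma* (180 to 322 CPM) and *Foxp3* subclusters (26.5 to 190.5 CPM) overlapped. The lowest *Pdcd1* was in the subcluster led by macrophage genes, at 58.5 CPM (32.0 to 98.2), which overlapped the *Foxp3* subcluster. *Havcr2* was lowest in the subcluster led by macrophage genes (134 CPM, 91.5 to 189, which overlapped the *Foxp3* subcluster) and lay between 251 and 327 CPM in the other 3, whose intervals overlapped each other.

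The same contrast appeared when T-like cells were sorted by single transcripts in place of clusters. In 35 cells with a *Foxp3* UMI and none of *Cd8a* or *Cd8b1*, *Ctla4* was at 1614 CPM (1456.5 to 1785), *Tigit* at 376 CPM (302 to 463) and *Pdcd1* at 76.1 CPM (45.1 to 120). In 100 cells with a *Cd8a* or *Cd8b1* UMI and none of *Foxp3*, *Ctla4* was at 789 CPM (703 to 884), *Tigit* at 86.8 CPM (59.8 to 122) and *Pdcd1* at 339 CPM (283 to 403). Cells with *Foxp3*, the factor that defines regulatory T cells, thus carried more *Ctla4* and *Tigit* and less *Pdcd1* than CD8 cells. For each of these 3 genes the intervals of both sets lay apart in either pool. *Havcr2* was at 342 CPM (286 to 406) in the CD8 cells and 199 CPM (146 to 264) in the *Foxp3* cells over both pools. In control the levels, 240 CPM (172 to 327) and 206 CPM (137 to 298), overlapped, and only in telmisartan did they lie apart, at 422 CPM (339 to 518) and 188 CPM (113 to 294). *Lag3*, with 13 and 12 UMIs, did not differ beyond counting error. Another 50 T-like cells had neither kind of UMI, and 1 had both.

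Many T-like cells had UMIs of several receptors at the same time. Of the 186 T-like cells, 75 (40.3%) had UMIs of at least 3 of *Pdcd1*, *Ctla4*, *Lag3*, *Havcr2* and *Tigit*, 3 cells had all 5 and 14 had none. By pool, at least 3 were seen in 26 of 74 control cells (35.1%) and 49 of 112 telmisartan cells (43.75%). At least 3 receptors were seen in 19 of the 35 *Foxp3* cells (54.3%) and in 37 of the 100 CD8 cells (37%), at median depths of 5753 and 2759 UMIs. These shares grow with depth and were not thinned, so differences between sets or pools were not tested. No background share was taken off. A *Havcr2* UMI was also seen in 53.4% of macrophage-like cells and a *Ctla4* UMI in 16.5%. The 186 cells include the 21 of the subcluster led by macrophage genes, 15 of them with a *Havcr2* UMI. The source of these UMIs was not tested.

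Between the pools, all 9 genes had at least 30 UMIs in T-like cells and all 9 were higher in telmisartan, with a median log2 ratio of 0.43 against 0.01 over all genes. This count changed under several alternatives. As a mean over cells of UMIs per 10000 of each cell, *Cd80* (-0.17), *Lag3* (-0.13) and *Tigit* (-0.17) were lower, as a mean of ln(1 + UMIs per 10000) *Cd80* (-0.31), *Tigit* (-0.21) and *Vsir* (-0.01) were, and without scaling, which lowers every T-like ratio alike and takes the median of all genes to -0.64, all but *Pdcd1* and *Lag3* were below 0. *Cd80* and *Vsir* were also lower with a tag share of 90% and cells clustered anew, *Cd80* with at most 10% mitochondrial UMIs and without the cell with most of its UMIs (-0.12), and *Tigit* without the subcluster led by macrophage genes (-0.22). In the T-like cells without the 5 macrophage genes *Lag3* (-0.24), *Tigit* (-0.49) and *Cd80* (-0.12) were lower. Genes with a difference of 1.5-fold or more and at least 30 UMIs were counted as past the fold. Of the 9 genes, 2 were higher past the fold, *Pdcd1* and *Lag3*, where 12.99% of the 4926 genes tested in T-like cells were. None was lower, where 11.9% of all genes were. A count of 2 of 9 is close to this background. The genes past the fold also changed. In the T-like cells without the 5 macrophage genes they were *Havcr2* (1.15), *Cd86* (1.112) and *Cd274* (0.67), and neither *Pdcd1* nor *Lag3*. Of these 3, *Havcr2* had an interval above 0 (0.39 to 1.98). The intervals of *Cd86* (-0.08 to 2.47, 33 UMIs) and *Cd274* (-0.31 to 1.74, 43 UMIs) held 0. No share of all genes past the fold is given for these cells. Without the subcluster led by macrophage genes they were *Cd86* (1.34) and *Pdcd1* (0.98). *Lag3* was below 1.5-fold under 7 of 15 alternatives and *Pdcd1* under 2, while *Cd274* (0.61) and *Ctla4* (0.61) exceeded it with at most 10% mitochondrial UMIs and *Havcr2* (0.60) with a tag share of 90%.

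*Pdcd1* rose from 149 to 321 CPM in T-like cells, a log2 ratio of 1.10 with a counting interval of 0.68 to 1.54. The ratio was above 0 under all 15 alternatives, from 0.45 without scaling to 1.30. In the T-like cells without the 5 macrophage genes it was 0.54 (-0.13 to 1.25), from 221 CPM in control (28 UMIs) and 323 CPM in telmisartan (59 UMIs), and no longer past the fold. *Ctla4* had a log2 ratio of 0.42 (0.22 to 0.62) over all T-like cells and 0.19 (-0.14 to 0.53) in those without the macrophage genes. *Havcr2* had 0.44 (0.06 to 0.82) over all T-like cells and 1.15 (0.39 to 1.98) in those without, where it went from 150 to 334 CPM. The *Lag3* ratio of 0.75 (-0.20 to 1.75) rested on 42 UMIs and was -0.24 (-1.65 to 1.21) without the macrophage genes, so its direction was not resolved at this depth. *Tigit* had 0.22 (-0.25 to 0.70) and -0.49 (-1.25 to 0.27). The part of macrophage RNA in these ratios was not tested beyond these values.

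The share of T-like cells with a *Pdcd1* UMI was 33.8% in control and 45.5% in telmisartan at median depths of 3982.5 and 3056 UMIs, with overlapping intervals (23.2 to 45.7% and 36.1 to 55.2%). Thinned to 500 UMIs, no T-like cell was too shallow and the shares were 6.76% and 12.5%. For *Ctla4* the shares were 77.0% and 79.5%, and 33.8% and 37.5% after thinning. Neither difference exceeded counting error.

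**Figure D2:**
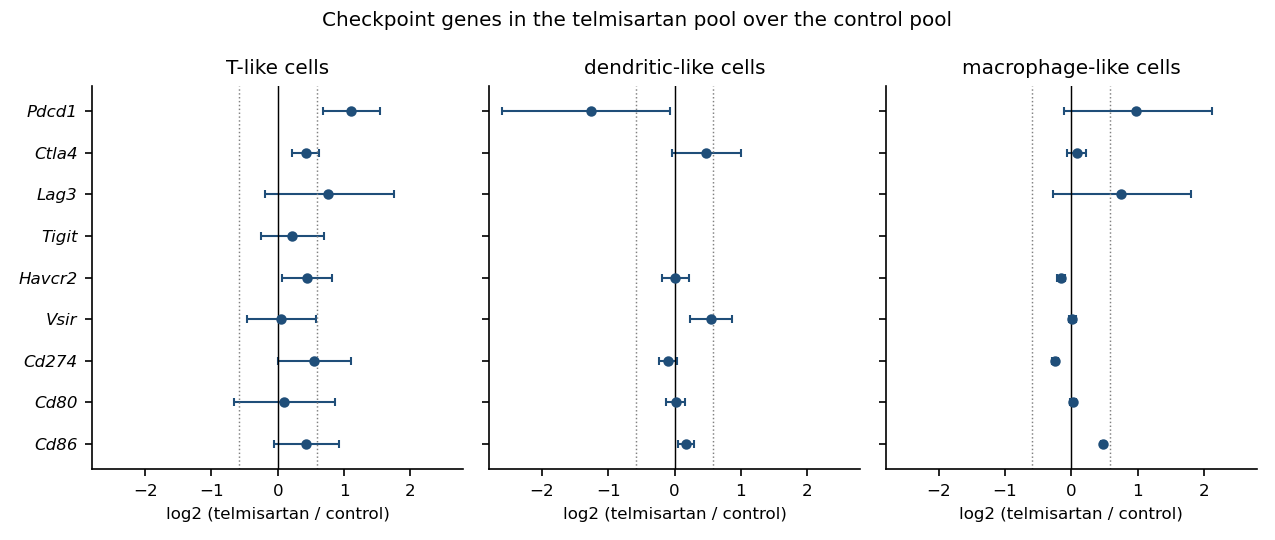
Log2 ratio of the telmisartan pool over the control pool for each checkpoint gene with at least 30 UMIs in T-like, dendritic-like and macrophage-like cells, with 95% intervals for counting error; dotted lines mark a 1.5-fold difference. *Pdcd1* lies at 1.10 in T-like and -1.25 in dendritic-like cells, and the narrow macrophage-like intervals put *Cd86* at 0.48 and *Cd274* at -0.25.

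Within the *Gzma* subcluster, *Pdcd1* went from 244 CPM in control (49 UMIs) to 444 CPM in telmisartan (105 UMIs), a log2 ratio of 0.87 (0.36 to 1.39). *Ctla4* there went from 508 CPM (102 UMIs) to 927 CPM (219 UMIs), a log2 ratio of 0.87 (0.52 to 1.22). In the *Foxp3* subcluster *Ctla4* was at 2188 CPM in control and 1821 CPM in telmisartan, a log2 ratio of -0.26 (-0.63 to 0.10). In *Foxp3* cells taken by transcript it was at 1593 and 1644 CPM, so the direction of *Ctla4* in *Foxp3* cells was not resolved. The difference between subclusters was not tested. *Pdcd1* in the *Cd8b1* subcluster had 3 UMIs in control (81.9 CPM) and 25 in telmisartan (329 CPM), and in CD8 cells taken by transcript it went from 198 CPM (33 UMIs) to 450 CPM (96 UMIs). In the *Foxp3* subcluster *Pdcd1* had 5 and 14 UMIs (81.6 and 199 CPM, log2 interval -0.27 to 3.11). In the subcluster led by macrophage genes it was lower, with 13 UMIs in control (76.4 CPM) and 1 in telmisartan (14.5 CPM, log2 interval -7.81 to 0.33). *Cd86* in the *Gzma* subcluster had 3 UMIs in control and 34 in telmisartan (14.9 and 144 CPM), but in CD8 cells taken by transcript it was at 198 and 206 CPM (33 and 44 UMIs). A telmisartan T-like cell alone held 15 *Cd86* UMIs.

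**Figure D3:**
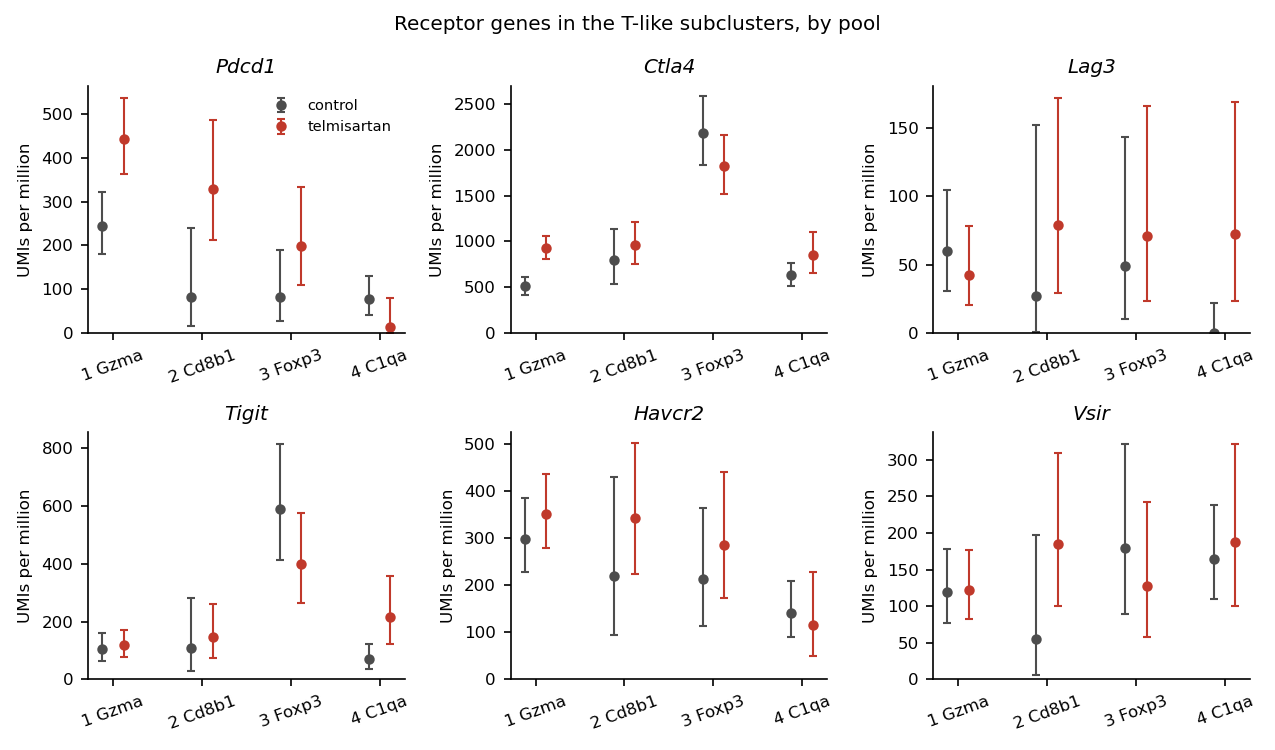
Level of the receptor genes and *Vsir* (CPM) in the 4 T-like subclusters of the control (gray) and telmisartan (red) pools, with exact Poisson 95% intervals. *Ctla4* reaches 2188 and 1821 CPM in the *Foxp3* subcluster, and *Pdcd1* goes from 244 to 444 CPM in the *Gzma* subcluster.

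In macrophage-like cells 8 of the 9 genes had at least 30 UMIs, all but *Tigit*, and their median log2 ratio was 0.06 against -0.03 over all genes. Higher past the fold were 2, *Pdcd1* and *Lag3*, where 7.79% of the 13459 genes tested were, but on 32 and 36 UMIs and with intervals that held 0 (-0.11 to 2.12 and -0.27 to 1.80). No member was lower past the fold, where 3.74% of all genes were. The well counted members shifted by less than 1.5-fold, in both directions. *Cd86* went from 309 CPM in control (11828 UMIs) to 431 CPM in telmisartan (12224 UMIs), a log2 ratio of 0.48 (0.44 to 0.52). *Cd274* went the other way, from 275 CPM (10506 UMIs) to 231 CPM (6558 UMIs), a log2 ratio of -0.25 (-0.29 to -0.20). *Havcr2* went from 157 to 141 CPM, a log2 ratio of -0.16 (-0.22 to -0.10). These 3 directions held under all 13 alternatives, but as a mean of ln(1 + UMIs per 10000) *Cd274* (-0.15) stood at the median of all genes (-0.16). *Cd80* (0.03), *Vsir* (0.01) and *Ctla4* (0.08) had intervals that held 0.

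The *Cd86* difference was not seen in shares of cells until depth was made equal. As sequenced, 78.6% of control and 79.1% of telmisartan macrophage-like cells had a *Cd86* UMI, at median depths of 8997 and 6464. After thinning to 1000 UMIs the shares were 25.6% (24.3 to 27.0%) and 34.9% (33.4 to 36.4%). For *Cd274* the shares were 63.3% and 55.5% as sequenced and 22.4% (21.2 to 23.8%) and 20.4% (19.2 to 21.7%) after thinning, and for *Havcr2* 59.3% and 47.4%, then 14.7% and 12.1%. The ligand genes had a UMI in some cells of every class, so no class here serves as a blank for them. The lowest *Cd86* share was 18.1%, in neutrophil-like cells at a median depth of 1769.

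Macrophage-like cells formed 8 subclusters, named here by a leading gene. In order of size they were *Vcan* (2629 cells), *Folr2* (1529), *Ly6c2* with *Plac8* (1144), *Serpinb2* with *Il6* (974), the mitotic *Top2a* (710), *Cxcl9* (619), the replication gene *Mcm5* (258) and *Ifit3* (188). *Cd274* differed 5.44-fold among them, from 112 CPM in the *Top2a* subcluster to 612 CPM (590 to 635) in the *Serpinb2* subcluster. The *Cxcl9* subcluster, whose leading genes include several induced by interferon-gamma, came next at 598 CPM (579 to 618) and overlapped it. The *Ly6c2* (418 CPM, 396 to 441) and *Ifit3* (398 CPM, 363 to 435) subclusters followed and overlapped each other. *Cd86* and *Cd80* were both highest in the *Ly6c2* subcluster, at 757 CPM (728 to 788) and 418 CPM (396 to 440). They were lowest elsewhere, *Cd86* in the *Mcm5* subcluster (245 CPM) and *Cd80* in the *Folr2* subcluster (104 CPM). *Vsir* peaked in the *Folr2* subcluster (191 CPM, 184 to 198) and *Havcr2* in the *Ly6c2* subcluster (231 CPM, 215 to 248). *Ctla4* varied 1.91-fold, from 16.0 CPM in the *Serpinb2* to 30.6 CPM in the *Ifit3* subcluster.

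Between the pools, *Cd274* was lower in telmisartan in 8 of 8 macrophage subclusters, in 5 of them with an interval below 0. In the *Vcan* subcluster it went from 230 to 163 CPM (log2 -0.49, interval -0.58 to -0.41), in the *Ly6c2* subcluster from 503 to 381 CPM (-0.40, -0.56 to -0.24) and in the *Cxcl9* subcluster from 621 to 524 CPM (-0.25, -0.36 to -0.13). In the *Serpinb2* subcluster it was at 614 and 610 CPM (-0.01, -0.12 to 0.10). *Cd86* was higher in 7 of 8 subclusters, each with an interval above 0. It went from 302 to 449 CPM in the *Vcan* subcluster (0.57, 0.51 to 0.63) and from 289 to 404 CPM in the *Folr2* subcluster (0.48, 0.40 to 0.57), with the *Serpinb2* subcluster as the exception (370 and 359 CPM). Subclusters can still be mixtures that differ between the pools, and the part of such mixing in these ratios was not tested.

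*Cd80* was nearly level over all macrophage-like cells, while in telmisartan it was higher in 5 of the 8 subclusters and lower in 3. In the *Serpinb2* subcluster it fell from 322 to 175.5 CPM (log2 -0.88, interval -1.05 to -0.70) and in the *Ly6c2* subcluster from 487 to 387 CPM (-0.33, -0.49 to -0.17). It went from 123 to 158 CPM in the *Top2a* subcluster (0.36, 0.20 to 0.52) and from 179 to 245 CPM in the *Ifit3* subcluster (0.45, 0.08 to 0.83). *Havcr2* was lower in 6 of 8 subclusters, with an interval below 0 in 4, and the lowest ratio was in the *Cxcl9* subcluster (185 to 132 CPM, -0.48, -0.72 to -0.25). *Vsir* was higher in 3 and lower in 5. Its interval lay above 0 in the *Folr2* subcluster (182 to 201 CPM, 0.14, 0.03 to 0.25). In the *Ly6c2* subcluster it lay below 0 (196 to 146 CPM, -0.43, -0.69 to -0.17). With equal subcluster weights in both pools the macrophage ratios were -0.27 for *Cd274*, 0.42 for *Cd86*, -0.03 for *Cd80* and -0.18 for *Havcr2*. The *Cxcl9* subcluster had 455 control and 164 telmisartan cells and the *Ly6c2* subcluster 372 and 772, and the *Ly6c2* cells were shallow, with a median of 2442.5 UMIs.

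**Figure D4:**
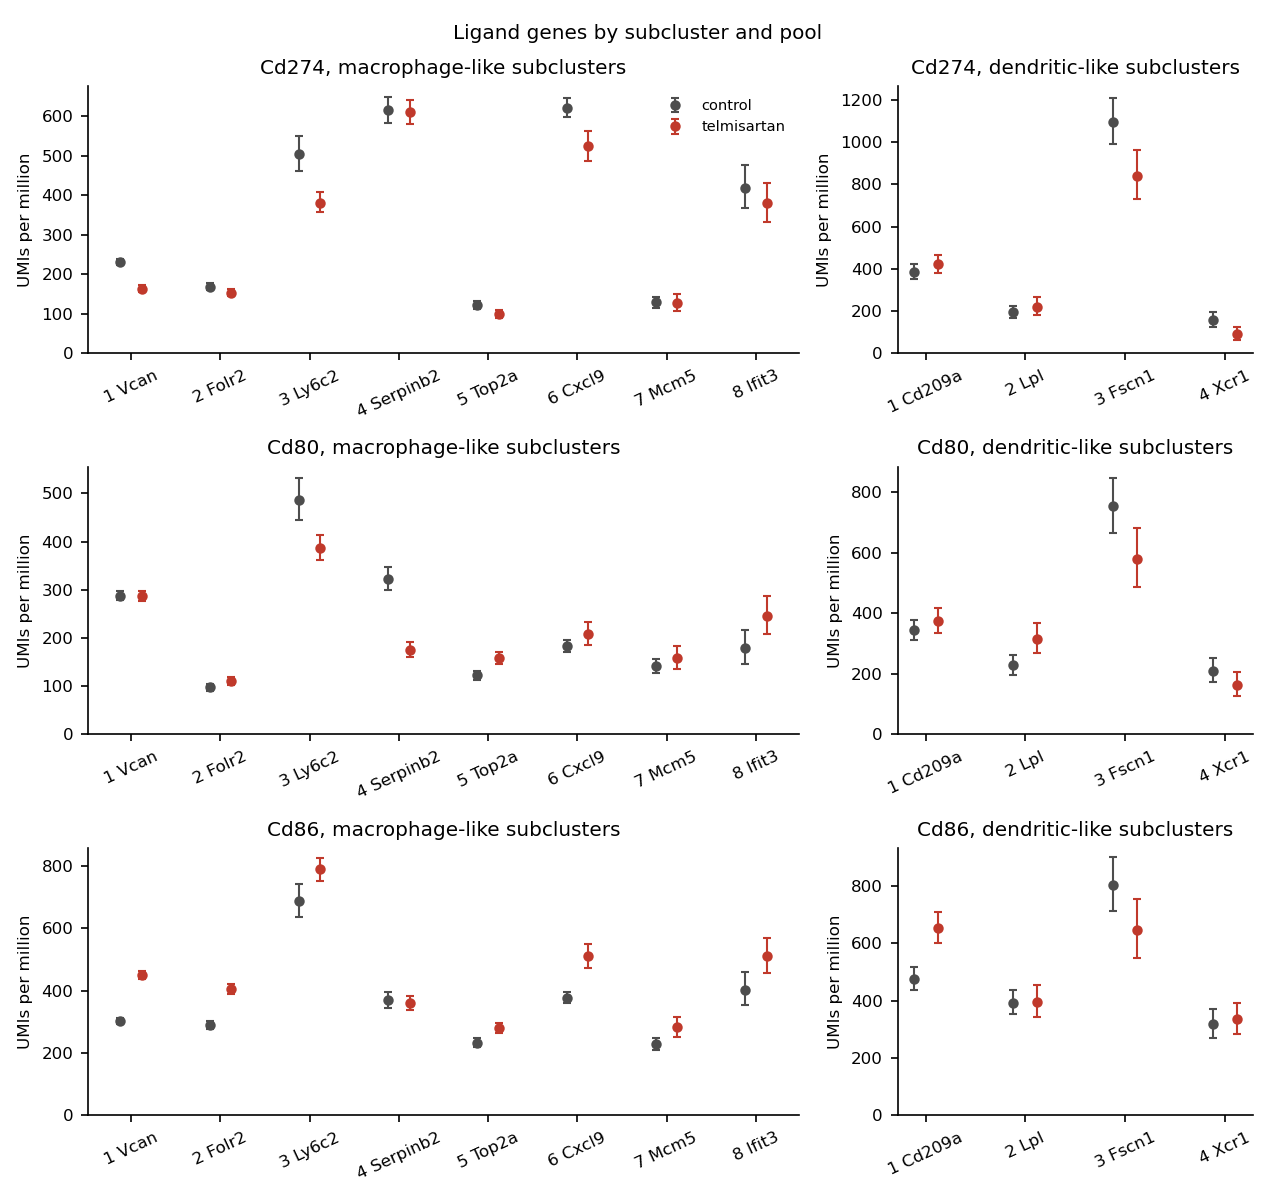
Levels of *Cd274*, *Cd80* and *Cd86* (CPM) in macrophage-like and dendritic-like subclusters of the control (gray) and telmisartan (red) pools, with exact Poisson 95% intervals. *Cd274* is near 610 CPM in both pools of the *Serpinb2* subcluster and goes from 1096.5 to 840.3 CPM in the *Fscn1* dendritic subcluster, while *Cd86* goes from 302 to 449 CPM in the *Vcan* subcluster.

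In dendritic-like cells 7 of the 9 genes had at least 30 UMIs, with a median log2 ratio of 0.02 against -0.04 over all genes. *Lag3* (13 UMIs) and *Tigit* (7 UMIs) did not. No member was higher past the fold, where 5.66% of the 8960 genes tested were, and 1 was lower, *Pdcd1*, where 8.09% of all genes were. *Pdcd1* had 27 UMIs in control (9.18 CPM) and 8 in telmisartan (3.85 CPM), a log2 ratio of -1.25 (-2.60 to -0.07). The UMIs lay in 18 of 366 control and 6 of 294 telmisartan cells, and the ratio ran from -1.44 to -0.62 over 12 alternatives. *Vsir* went from 57.1 CPM (168 UMIs) to 83.4 CPM (173 UMIs), a log2 ratio of 0.54 (0.23 to 0.86). With a tag share of 90% and the cells clustered and named anew, which gave 270 dendritic-like cells in 1 cluster in place of 660, *Vsir* had 1.18 and was past the fold. Tag share and class membership cannot be told apart there. *Cd86* went from 463 to 522 CPM, a log2 ratio of 0.17 (0.06 to 0.29). *Cd274* (-0.09), *Cd80* (0.02), *Havcr2* (0.01) and *Ctla4* (0.48, -0.04 to 1.00) had intervals that held 0.

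Ligand levels differed more between the 4 dendritic-like subclusters than between the pools. Mature cells marked by *Fscn1* and *Ccr7* (107 cells) had the highest level of each ligand gene, with 993 CPM of *Cd274* (916 to 1075), 682 CPM of *Cd80* (618 to 750) and 740 CPM of *Cd86* (674 to 812). They had the lowest *Vsir* (11.4 CPM, 4.59 to 23.5) and *Havcr2* (31.0 CPM, 18.7 to 48.4) of the 4. The *Xcr1* subcluster (91 cells) was lowest in *Cd274* (126 CPM), *Cd80* (189 CPM) and *Cd86* (325 CPM). Its leading genes were *Xcr1*, a gene of cross-presenting cells, and mitotic genes such as *Top2a*. What share of it is cross-presenting cells was not tested. Between the *Fscn1* and *Xcr1* subclusters *Cd274* differed 7.85-fold. The *Cd209a* subcluster (322 cells), led also by interferon genes such as *Rsad2*, and the *Lpl* subcluster (140 cells), led also by *C1qa* and left without a cell type name, lay between them for each ligand gene. *Vsir* was highest in the *Lpl* subcluster (104 CPM, 87.9 to 123). It gave 85 of the 168 control and 60 of the 173 telmisartan *Vsir* UMIs of dendritic-like cells.

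In telmisartan the mature subcluster was lower in all 3 ligand genes. *Cd274* went there from 1096.5 to 840.3 CPM (log2 -0.38, interval -0.63 to -0.14), *Cd80* from 752 to 578 CPM (-0.38, -0.68 to -0.08) and *Cd86* from 804 to 646 CPM (-0.31, -0.60 to -0.03). In the *Xcr1* subcluster *Cd274* went from 156 CPM (82 UMIs) to 91.1 CPM (40 UMIs), a log2 ratio of -0.78 (-1.36 to -0.21). In the *Cd209a* and *Lpl* subclusters the ligands were level or higher. *Cd86* went in the former from 476 to 653 CPM (0.46, 0.29 to 0.63) and *Vsir* from 47.1 to 86.5 CPM (0.88, 0.36 to 1.40), and in the latter *Cd80* went from 228 to 314 CPM (0.46, 0.15 to 0.77). The share of dendritic-like cells in the mature subcluster was 16.4% in control and 16.0% in telmisartan. Whether the subclusters differ in their response was not tested.

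Neutrophil-like cells had few UMIs, with 96599 in control and 47267 in telmisartan. Their *Cd274* log2 ratio was 0.54 (0.14 to 0.94) and that of *Cd80* was -1.20 (-2.08 to -0.41). *Cd274* and *Cd80* thus went in opposite directions in these 72 cells, while the 20 UMIs of *Cd86* did not show a direction. A single telmisartan cell held 20 of the 91 *Cd274* UMIs of that pool, which the counting interval does not reflect. For this class no share of all genes past the fold and no alternative is given.

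Other genes of the checkpoint system were read in 6 lists, whose counts stand against the shares of all genes past the fold, 7.79% higher and 3.74% lower in macrophage-like, 5.66% and 8.09% in dendritic-like and 12.99% and 11.9% in T-like cells. The 12 macrophage and monocyte markers in T-like cells summed to 6500.1 CPM in control and 4069.5 CPM in telmisartan. The part of this difference in the T-like ratios of the lists was not tested. Among ligands akin to PD-L1, *Pdcd1lg2*, which encodes PD-L2, the other ligand of PD-1, went in macrophage-like cells from 25.2 CPM (964 UMIs) to 10.01 CPM (284 UMIs), a log2 ratio of -1.33 (-1.53 to -1.14). It was the 1 gene of 4 in this list lower past the fold there, none was higher, and the list's median was -0.35. In dendritic-like cells 2 of the 4 had enough UMIs and neither was past the fold (median -0.17), and in T-like cells the same held for 1 (median 0.57).

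Further ligands of these receptors include *Pvr*, which binds TIGIT, and *Tnfsf9*, the ligand of the stimulating receptor encoded by *Tnfrsf9*. Of 12 ligands counted in macrophage-like cells 3 were higher past the fold, none was lower, and the median was 0.16. *Pvr* went from 74.2 to 153 CPM (log2 1.04, interval 0.98 to 1.114), *Tnfsf9* from 105 to 219 CPM (1.06, 1.01 to 1.12) and *Cd200* from 1.12 to 2.57 CPM (1.20, 0.63 to 1.77). *Pvr* was also the 1 ligand of 12 higher past the fold in dendritic-like cells, from 82.0 to 165 CPM (1.01, 0.77 to 1.25), with none lower and a median of 0.02. In T-like cells 2 of 8, *Lgals9* and *Cd200*, were lower past the fold, none was higher and the median was -0.09. The interval of *Lgals9* lay below 0 (-1.27 to -0.15), and that of *Cd200* (46 UMIs) held 0 (-1.67 to 0.20).

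Among stimulating receptors, *Tnfrsf9* went in macrophage-like cells from 179 to 84.0 CPM (log2 -1.09, interval -1.16 to -1.02), opposite to its ligand. It was the 1 receptor of 6 lower past the fold, while *Cd28* (0.81) and *Tnfrsf4* (0.86) were higher on 99 and 82 UMIs, and the median was 0.24. In T-like cells *Icos* was the 1 of 8 past the fold, from 915 to 1390.5 CPM (0.60, 0.42 to 0.78), with a median of 0.40, and in dendritic-like cells none of 4 was (median 0.02). Of other inhibitory receptors, 6 had enough UMIs in each class. None passed the fold in macrophage-like (median 0.01) or dendritic-like cells (median 0.05). In T-like cells *Pirb* and *Sirpa*, genes of myeloid cells, were lower past the fold and none was higher (median -0.23). The interval of *Sirpa* lay below 0 (-1.60 to -0.07), and that of *Pirb* (31 UMIs) held 0 (-1.78 to 0.51).

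*Cd274* is induced by interferon-gamma through IRF1, and CMTM6 keeps its protein at the surface. In macrophage-like cells, where *Cd274* was lower, *Irf1* was higher, from 157 to 239 CPM (log2 0.60, interval 0.55 to 0.65). *Irf1* was the 1 gene of 8 in this list past the fold there (median 0.06), and in dendritic-like cells none of 7 was (median 0.07). In T-like cells 3 of 7 were higher past the fold, where 12.99% of all genes were, and none lower, with a median of 0.54. These were *Ifng* (486 to 813 CPM, 0.74, 0.50 to 0.99), *Irf1* (93.8 to 199 CPM, 1.09, 0.55 to 1.64) and *Jak2* (87.4 to 153 CPM, 0.81, 0.23 to 1.40). Phosphatases and factors of exhausted T cells had 2 of 8 genes higher past the fold in T-like cells, *Nfatc1* (0.63, 0.13 to 1.14) and *Ptpn11* (0.73, -0.12 to 1.62), none lower and a median of 0.33, which on 8 genes is close to that background. None of this list passed the fold in macrophage-like (8 genes, median 0.03) or dendritic-like cells (6 genes, median 0.08).

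Over 17 groups of cells, the subclusters with neutrophil-like cells, the genes whose log2(CPM + 1) tracked a member most closely among 10312 genes were named. *Ctla4* ran with *Trbc1* (Pearson r 0.98), *Cd247* and *Cd3d*, and *Pdcd1* with *Tbx21* (0.97), *Zfp1* and *Kmt2a*. *Cd274* ran with *Irf1* (0.90), *Pim1* and *Cflar*, *Cd80* with *Ptafr* (0.89), *Gm10634* and *Csf2rb*, and *Cd86* with *Gngt2* (0.92), *Cd83* and *Cxcl16*. *Havcr2* ran with *Fam117a* (0.90), and *Vsir* with *Ndst1* (0.94), *Spata13* and *Rgcc*. *Lag3* (91 UMIs) and *Tigit* (179 UMIs) were too sparse. The groups share libraries and differ in depth, so these values are a description.

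The 9 genes lie on 6 chromosomes of the GRCm38 genome. By the GENCODE M21 annotation, *Pdcd1* is at chr1:94038305-94052553 on the minus strand and *Ctla4* at chr1:60887000-60915832 on the plus strand, with its coding transcripts starting at 60909025. Chromosome 16 holds *Cd80* (chr16:38455561-38496335, plus), *Cd86* (chr16:36603869-36666081, minus) and *Tigit* (chr16:43648867-43664146, minus). *Cd274* is at chr19:29367455-29388095 (plus), *Lag3* at chr6:124904361-124911705 (minus), *Havcr2* at chr11:46454935-46481255 (plus) and *Vsir* at chr10:60346851-60372684 (plus). *Vsir* lies opposite *Cdh23* (4.44 CPM in macrophage-like cells), and the antisense gene *AC119228.1*, which has no column, lies opposite *Cd274*. It is not stated whether counting used the strand, so reads of these pairs cannot be told apart.

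The promoter of *Cd274* is shown because, of *Cd274*, *Cd80* and *Cd86*, it varied most widely between macrophage-like and between dendritic-like subclusters, though not between T-like ones. *Vsir* ran more widely between dendritic-like subclusters (11.4 to 104 CPM), on 7 UMIs in the lowest. The 250 bases before its RefSeq start are chr19:29367188-29367437 on the plus strand of GRCm38.p6, with GAAA and its other-strand form TTTC, the core of interferon response elements, in capitals.

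*Cd274*: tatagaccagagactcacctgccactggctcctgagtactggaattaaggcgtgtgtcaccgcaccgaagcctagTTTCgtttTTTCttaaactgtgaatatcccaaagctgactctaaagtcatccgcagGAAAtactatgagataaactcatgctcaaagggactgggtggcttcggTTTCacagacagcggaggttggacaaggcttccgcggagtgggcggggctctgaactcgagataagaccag

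This window held 4 such matches, and 28.9% of 32851 promoters of the same length held as many, with a median of 2. The windows of *Ctla4* and *Tigit* held 4 and 5, so the count is not particular to *Cd274*. A spaced pair of such cores, the form of the interferon-stimulated response element, was found in 2.98% of promoters and in 0 of the 7 members with an entry. *Cd86* and *Lag3* had no entry. The letters were chosen after the values were seen, and a match is a description of the sequence.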

How the data were processed

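CD45+ cells of 1 control and 1 telmisartan pool were compared. The authors deposited UMI counts per gene and cell and Sample Tag read counts, made with the BD Rhapsody pipeline 1.11 on GRCm38 with GENCODE M19, intronic reads included, and neither table is normalized. A cell needed at least 10 tag reads with 75% from its tag, 150 to 5000 genes and at most 20% mitochondrial UMIs. Scrublet in scanpy 1.11.5 made no call by itself, so the 942 cells with the highest scores, the share that split tags predict, were removed as doublets. Seurat 5.3.0 in R 4.3.3 clustered cells (2000 variable genes without checkpoint genes, 30 components, resolution 0.5). Clusters were named by at least 3 markers at 4 times the other cells. All remaining clusters were called macrophage-like by default, without a threshold on macrophage markers. UMIs were summed by class and pool in Python 3.11.15 (numpy 2.4.6, scipy 1.17.1, pandas 2.3.3, matplotlib 3.10.9). Intervals are exact Poisson for levels, Clopper-Pearson for shares and conditional binomial for ratios, and the ratio was tested on simulated data. TMM factors came from edgeR 4.0.16. Genes named are the 9 members, markers, genes of 6 lists (*Cd244* has no column) and up to 3 of the most correlated genes with at least 200 UMIs. Members and lists were chosen with earlier results of these data known.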

Additional observations from a re-analysis of the deposited data

Results flagged for a closer look

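*Pdcd1* moved in opposite directions in the classes of cells, with a log2 ratio of 1.10 in T-like cells and -1.25 in dendritic-like cells, the latter on 35 UMIs. *Havcr2* did so between T-like cells (0.44) and macrophage-like cells (-0.16). Neither difference was tested, since each pool is a single sample. Outside the comparisons, the 8959 tag-called cells over the mitochondrial limit (3586 control and 5373 telmisartan) held 9252 UMIs of the 9 genes, with *Cd86* at 351 CPM and *Cd274* at 129 CPM. The 941 cells within the limits whose tag reads were split between the pools held 495 UMIs of *Pdcd1*, *Ctla4*, *Lag3* and *Tigit*, with *Ctla4* at 52.0 CPM against 35.1 CPM in the kept cells. The cells with split tags were not assigned to a pool.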

How the results depend on the processing

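Each ratio was recomputed under alternatives, of which 2, leaving out the T-like subcluster led by macrophage genes and the cell with most UMIs of a gene, were chosen after the data were seen. All 24 ratios stayed inside their counting intervals with at least 500 genes, at most 10% mitochondrial UMIs, no doublet removal, resolution 0.3 or 0.8, members used in clustering, totals without mitochondrial and ribosomal genes, or TMM factors. A tag share of 90%, with cells clustered and named anew, gave -0.30 for *Cd274* and 0.43 for *Cd86* in macrophage-like cells, and 0.42 for *Cd86*, 0.26 for *Havcr2* and 1.18 for *Vsir*, then past the fold, in the 270 cells then named dendritic-like.

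The mean of UMIs per 10000 of each cell gave -0.16 for *Cd274*, -0.051 for *Cd80* and -0.049 for *Vsir* in macrophage-like cells, and 0.19 for *Ctla4* and, with signs reversed, -0.13 for *Lag3*, -0.17 for *Cd80* and -0.17 for *Tigit* in T-like cells. The mean of ln(1 + UMIs per 10000) moved the median of all genes to -0.16 in macrophage-like, -0.10 in dendritic-like and -0.13 in T-like cells. It gave -0.15 for *Cd274*, level with that median, -0.079 for *Cd80*, 0.25 for *Cd86*, -0.25 for *Havcr2* and -0.12 for *Vsir* in the former and 0.20 for *Ctla4* in the latter.

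Leaving out the scaling lowers every ratio of a class by the same amount and is no separate check of them. It took the median of all genes to -0.44 in macrophage-like and -0.23 in dendritic-like cells. Macrophage-like ratios became -0.66 for *Cd274*, -0.57 for *Havcr2*, -0.38 for *Cd80*, 0.068 for *Cd86*, -0.33 for *Ctla4* and -0.40 for *Vsir*, and dendritic-like ones -0.28 for *Cd274*, -0.17 for *Cd80* and -0.015 for *Cd86*. In T-like cells they became 0.45 for *Pdcd1*, -0.10 for *Cd274*, -0.23 for *Ctla4*, -0.22 for *Cd86*, -0.21 for *Havcr2*, -0.43 for *Tigit* and -0.60 for *Vsir*.

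Subclusters weighted alike gave -0.026 for *Cd80* and 0.42 for *Cd86* in macrophage-like cells. T-like cells without the 5 macrophage genes gave 0.54 for *Pdcd1*, 0.19 for *Ctla4*, 1.112 for *Cd86* and 1.15 for *Havcr2*, both then past the fold, and, with signs reversed against all T-like cells, -0.49 for *Tigit*, -0.24 for *Lag3* and -0.12 for *Cd80*, with levels of 281 CPM for *Pdcd1*, 1064 CPM for *Ctla4*, 64.7 CPM for *Lag3* and 204 CPM for *Tigit* over both pools. Without the subcluster led by macrophage genes *Cd86* had 1.34, then past the fold, and *Tigit*, with its sign reversed, -0.22.

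With thinning, the telmisartan share of macrophage-like cells minus the control share was -2.04 points for *Cd274* (-7.80 as sequenced), -0.0522 for *Ctla4* (-3.34), -1.11 for *Cd80* (-6.32), 9.30 for *Cd86* (0.421), -2.56 for *Havcr2* (-11.9) and -0.512 for *Vsir* (-8.74). When all tag-called cells stood in for the kept cells of every class, *Cd80* had -0.042, *Cd86* 0.39, *Havcr2* -0.21 and *Vsir* -0.047. The cause of these shifts was not tested.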
